A study of Mus musculus with 4 samples.

Results

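The transcripts of 10 genes of STING signalling and of the interferon receptors were followed across the leukocytes of mouse pancreatic tumours. The genes were chosen by name, 10 of 32285 in the deposited feature list, and all 10 were found: Tmem173 (STING), Tbk1, Irf3, Ikbke, Trex1, Ifnar1, Ifnar2, Irf5, Ifngr1 and Ifngr2. KPC cells, a line from a mouse pancreatic tumour, were grown under the skin of male C57BL/6 mice, and live CD45+ cells were sorted from the resected tumours for 5′ single-cell RNA-seq. The 4 libraries came from untreated tumours, tumours given a STING agonist (ADU-S100, injected once into the tumour, days before resection), tumours given an LTβR agonist (the antibody 4H8, given intraperitoneally) and tumours given both (STING and LTβR agonist, here the combination). Tumours of a group were pooled and each group had 1 library, so no difference between groups could be tested, and every interval below covers counting error only. Age was not given in the labels.

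STING is an adaptor of the endoplasmic reticulum that is engaged by cyclic dinucleotides, either those made by the DNA sensor cGAS or a synthetic agonist. It recruits the kinase TBK1, which phosphorylates IRF3 and so switches on interferon genes. IKKε, encoded by Ikbke, is the close relative of TBK1, IRF5 is a related factor that drives inflammatory cytokine genes in myeloid cells, and TREX1 is the exonuclease that removes cytosolic DNA before cGAS can sense it. The interferons then act through paired receptor chains: IFNAR1 with IFNAR2 for type I interferon, and IFNGR1, which binds interferon-γ, with IFNGR2, which is needed for the signal.

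Of 24839 barcodes, 23011 passed filters on detected genes and mitochondrial UMIs (unique molecular identifiers), from 3748 to 7147 a library, with 5750 to 7094 median UMIs per cell. The share of barcodes over the mitochondrial limit was 2.68% to 2.71% in the untreated and STING agonist libraries and 5.99% to 6.78% in the LTβR agonist and combination libraries. Between libraries, 246 barcodes were shared, or 1.08%. Cells were placed by their markers in macrophage- or monocyte-like (9024 cells), T-like (6780), NK-like (1661), dendritic-like (1019), neutrophil-like (979), B-like and plasmacytoid dendritic-like classes. Only 6 cells were gated as tumour epithelial, 3 as fibroblasts and 3 as endothelial, as a CD45 sort leaves. The neutrophil-like cells were shallow, with 1979 to 2414 median UMIs per cell in the 4 libraries.

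The stretches before the start sites of 3 members are shown as examples of members whose levels in macrophage- or monocyte-like cells separated by agonist. Irf5 had the largest such difference for the STING agonist, and Ifnar2 and Ikbke were among the members lower in both libraries with the LTβR agonist. Tmem173 and Ifngr2 also separated by the STING agonist, and Ifnar1 and Tbk1 by the LTβR agonist, and these are not shown. Each is the 250 bases before the RefSeq start (GRCm38.p6), 5′ to 3′ on the strand of the gene, at chr16:91372533-91372782 (+) for Ifnar2, chr6:29526375-29526624 (+) for Irf5 and chr1:131279564-131279813 (−) for Ikbke. Capitals mark a match to GAS, the interferon-γ-activated sequence.
Ifnar2: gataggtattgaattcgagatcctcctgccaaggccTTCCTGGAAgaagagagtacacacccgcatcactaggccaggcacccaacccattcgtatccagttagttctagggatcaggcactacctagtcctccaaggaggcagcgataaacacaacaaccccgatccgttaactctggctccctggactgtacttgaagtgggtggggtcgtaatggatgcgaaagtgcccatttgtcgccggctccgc
Irf5: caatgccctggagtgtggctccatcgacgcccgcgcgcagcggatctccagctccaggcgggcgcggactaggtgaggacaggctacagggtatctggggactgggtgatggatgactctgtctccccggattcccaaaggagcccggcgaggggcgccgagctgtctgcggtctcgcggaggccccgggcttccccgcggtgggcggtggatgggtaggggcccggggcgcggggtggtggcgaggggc
Ikbke: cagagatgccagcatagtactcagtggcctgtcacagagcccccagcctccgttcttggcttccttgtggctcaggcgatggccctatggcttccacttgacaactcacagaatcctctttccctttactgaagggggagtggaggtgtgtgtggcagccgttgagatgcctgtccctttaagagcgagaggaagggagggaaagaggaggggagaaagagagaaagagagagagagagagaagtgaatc

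The letters searched on both strands were TTCNNNGAA for GAS and GAAANNGAAA for ISRE, the element bound by interferon regulatory factors. Of 10 promoters of the 9 members with a RefSeq entry, 1 held a match, the GAS letters 214 bases before the start of Ifnar2, which read the same on both strands. Among all 32851 promoters of the same length, 7.02% held GAS and 2.98% held ISRE. A match is a description of these letters and not of a bound site.

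In the GRCm38 annotation (GENCODE vM21), 3 of the receptor genes lie in 1 stretch of chromosome 16 on the plus strand. Ifnar2 (91372783 to 91405589) is followed after 574 bases by Il10rb, the shared chain of the interleukin-10 receptor family, then by Ifnar1 (91485238 to 91507441) and Ifngr2 (91547072 to 91565623), all within 192841 bases. Ifngr1 lies apart, on chromosome 10 (19591949 to 19610229, plus strand), as does Tbk1 (chromosome 10, 121546455 to 121586787, minus strand). Irf5 (chromosome 6, 29526625 to 29541871) shares 1045 bases with Tnpo3, and Irf3 (chromosome 7, 44997648 to 45002848) shares 1065 bases with Bcl2l12, both on the opposite strand. Ikbke (chromosome 1, 131254343 to 131279606, minus strand) covers the antisense genes Gm28913 and Gm28914. Ifnar2 also shares 13869 bases with Gm21970 on its own strand, a gene model not used in these files. Whether counting used strand is not given in the sources used here, so reads in these stretches could belong to either gene.

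Levels below are UMIs of a gene divided by the UMIs of all genes in all cells of a class in a library, times 1000000 (CPM), always in the order untreated, STING agonist, LTβR agonist and combination. They are compared between cells for 1 gene, not between genes, unless a sentence says that it gives a ratio of UMIs. Fewer transcripts per cell and fewer cells that hold any cannot be told apart in such sums.

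**Figure D1:**
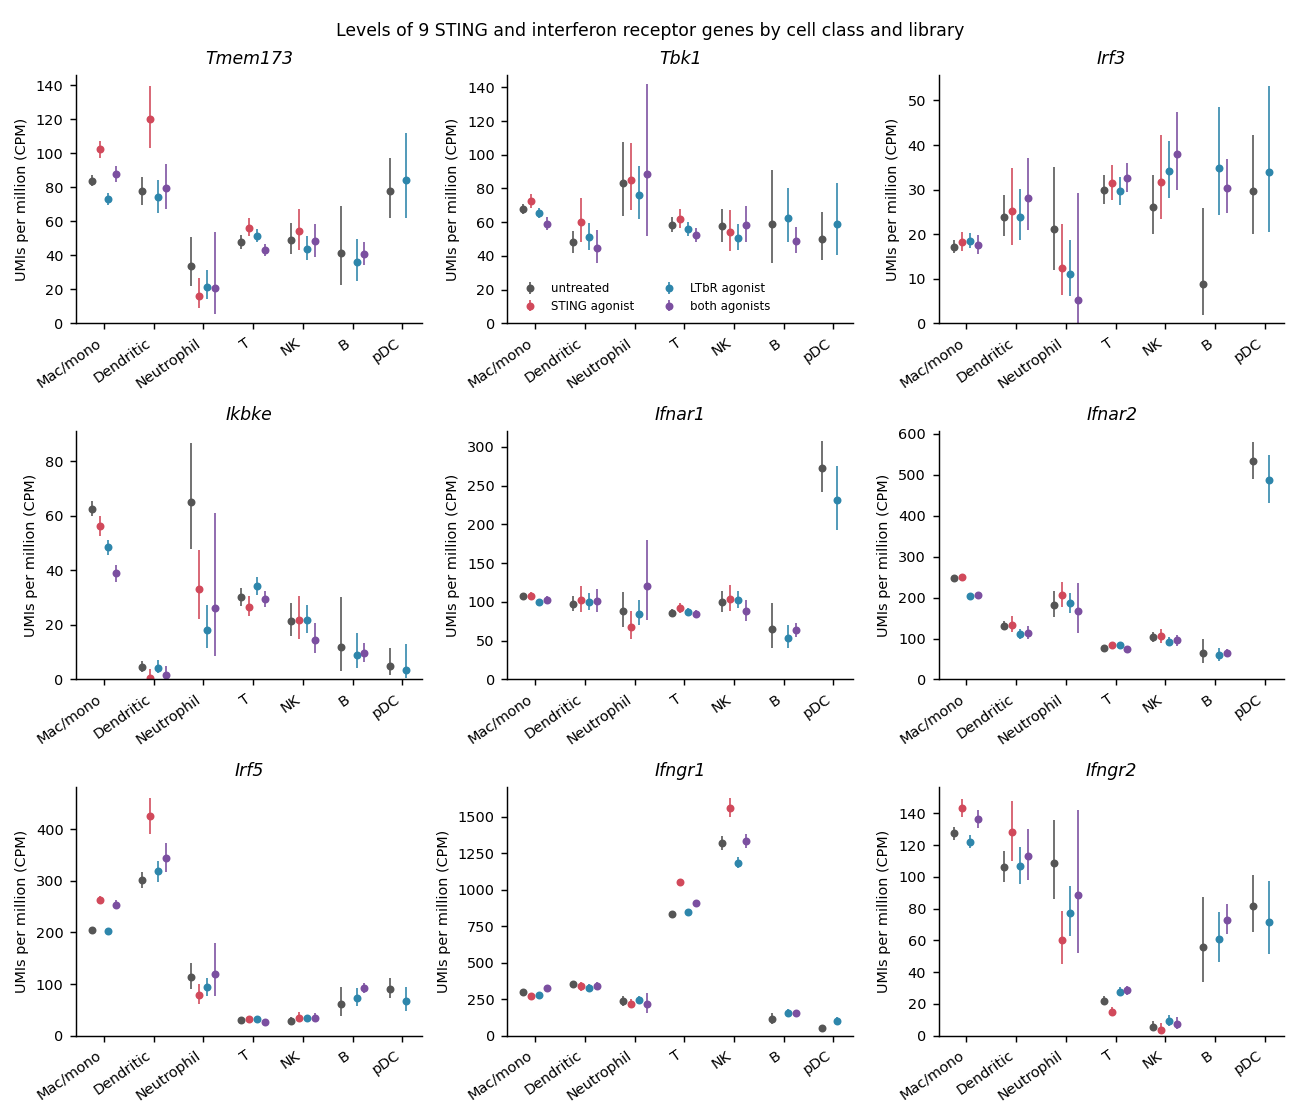
Levels of 9 members (vertical axes, CPM, from 0) in 7 marker-gated classes, 1 point per library with its 95% Poisson interval, for classes with at least 50 cells in that library; Trex1 is left out for want of UMIs. Irf5 was highest in dendritic-like cells, Ifnar1 and Ifnar2 in plasmacytoid dendritic-like cells and Ifngr1 in NK- and T-like cells, where Ifngr2 was lowest.

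In libraries with at least 50 cells of a class, the STING transcript averaged highest in dendritic-like and macrophage- or monocyte-like cells. It was found in every class. Tmem173 (chromosome 18, 35733679 to 35740554, minus strand) stood at 84.0, 102, 73.1 and 88.0 CPM in macrophage- or monocyte-like cells and at 77.7, 120.4, 74.3 and 79.6 CPM in dendritic-like cells, ranges that overlapped. T-like cells held 47.9, 56.4, 51.6 and 42.9 CPM and NK-like cells 49.1, 54.1, 44.0 and 48.2 CPM, each below every macrophage- or monocyte-like value. Neutrophil-like cells were lowest, at 33.9, 15.9, 21.5 and 20.9 CPM, from 24, 14, 27 and 4 UMIs. The share of macrophage- or monocyte-like cells with a Tmem173 UMI was 46.6%, 54.0%, 40.1% and 44.1%, and 7.76%, 8.93%, 6.96% and 6.98% once each cell was thinned to 1000 UMIs, so the STING agonist library was highest on both counts.

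The kinases differed in where they were found. Tbk1 was close to even over the classes, from 44.8 to 60.2 CPM in dendritic-like cells to 76.3 to 88.9 CPM in neutrophil-like cells, the only class whose range lay apart from the next. Ikbke was uneven: macrophage- or monocyte-like cells held 62.6, 56.1, 48.4 and 38.8 CPM and T-like cells 30.1, 26.7, 34.1 and 29.3 CPM, while dendritic-like cells held 4.39, 0.700, 4.25 and 1.66 CPM, from 20, 1, 13 and 3 UMIs. An Ikbke UMI was found in 2.92%, 0.781%, 3.54% and 1.78% of dendritic-like cells. The dendritic-like class was therefore almost without the second kinase. Its Tbk1 was below that of macrophage- or monocyte-like cells in each library, at 44.8 to 60.2 against 59.0 to 72.4 CPM.

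Irf5 and Irf3 differed between myeloid and T-like cells in opposite directions. Irf5 stood at 301, 425, 318 and 344 CPM in dendritic-like cells and 205, 262, 202 and 254 CPM in macrophage- or monocyte-like cells, against 31.2, 31.9, 31.4 and 25.5 CPM in T-like cells. Irf3 was higher in T-like cells, at 29.9, 31.4, 29.6 and 32.6 CPM, than in macrophage- or monocyte-like cells, at 17.1, 18.2, 18.4 and 17.6 CPM, and no library of either class overlapped the other. Both factors were higher in dendritic-like than in macrophage- or monocyte-like cells, with Irf3 at 23.9 to 28.2 CPM in the former. In Ly6c2 monocyte-like cells, a sub-gate with a Ly6c2 UMI and at most 1 of the C1q genes, there were 15.0, 20.3, 15.1 and 17.4 Irf5 UMIs for each Irf3 UMI, a ratio not scaled for transcript length.

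Trex1 was all but undetected, with 3, 3, 2 and 9 UMIs in macrophage- or monocyte-like cells, at most 0.581 CPM, and none in NK-, neutrophil- or B-like cells, where a count of 0 allows up to 3 a library. The gene (chromosome 9, 109057933 to 109059734, minus strand) lies wholly within Atrip, a DNA damage response gene on the same strand, with all 1802 bases shared. Atrip held 10.7, 10.8, 9.28 and 10.1 CPM in the same cells. How reads in both genes were assigned is not given in the sources used here, so the Trex1 level is uncertain and no ratio is given for it.

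The type I receptor chains were highest in plasmacytoid dendritic-like cells, the class best known for making type I interferon. Ifnar2 stood there at 534, 582, 487 and 492 CPM and Ifnar1 at 273, 311, 231 and 201 CPM, from 103, 33, 65 and 30 cells. The next class for both chains was macrophage- or monocyte-like cells, with Ifnar2 at 248, 251, 203 and 207 CPM and Ifnar1 at 108, 108, 100.1 and 103 CPM. No plasmacytoid dendritic-like value overlapped any of theirs. Ifnar1 was at 97.7 to 103 CPM in dendritic-like, 88.0 to 104 CPM in NK-like, 68.2 to 120.2 CPM in neutrophil-like and 84.3 to 92.2 CPM in T-like cells, and lowest, apart from the rest, at 53.8 to 64.9 CPM in B-like cells with at least 50 cells. Ifnar2 stepped down from myeloid to lymphoid classes, to 77.6, 85.2, 83.3 and 74.0 CPM in T-like and 58.8 to 65.3 CPM in B-like cells. As UMIs of Ifnar2 per UMI of Ifnar1, that is 2.30, 2.32, 2.03 and 2.01 in macrophage- or monocyte-like cells and 0.910, 0.924, 0.957 and 0.878 in T-like cells.

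The type II receptor chains ran against each other. NK-like cells held Ifngr1 at 1319.7, 1558, 1184 and 1331 CPM and T-like cells at 831, 1051, 849 and 907 CPM, above the 298, 272, 278 and 323 CPM of macrophage- or monocyte-like cells in every library. Ifngr2 had the reverse order, at 127, 143, 122 and 137 CPM in macrophage- or monocyte-like cells, 22.1, 14.9, 27.7 and 28.5 CPM in T-like cells and 5.46, 3.38, 9.32 and 7.30 CPM in NK-like cells. In libraries with at least 50 cells of a class, the 7 classes did not overlap their neighbours in the order of Ifngr1, which ran NK, T, dendritic, macrophage or monocyte, neutrophil, B and plasmacytoid dendritic.

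In NK-like cells 94.8%, 97.5%, 96.1% and 98.3% of cells had an Ifngr1 UMI and 2.59%, 1.67%, 2.64% and 2.82% an Ifngr2 UMI, the latter from 13, 5, 32 and 15 UMIs. Counted as UMIs, there were 242, 461, 127 and 182 Ifngr1 for each Ifngr2 in NK-like cells, 37.6, 70.4, 30.7 and 31.9 in T-like cells and 2.34, 1.90, 2.27 and 2.37 in macrophage- or monocyte-like cells. Free RNA sets a floor to such low values: of the level that macrophage genes had in their own class, a median of 0.979% and at most 4.80% was found in NK-like cells, and a median of 2.36% and at most 8.37% in T-like cells. Ifngr2 of NK-like cells was 13.1- to 42.3-fold below the macrophage- or monocyte-like level, inside that range in the untreated and STING agonist libraries and above it in the others, so part of it may be background and the NK-like ratios are not precise. In plasmacytoid dendritic-like cells the ratio was 0.651, 0.409, 1.40 and 0.323, the only one of these 7 classes in which Ifngr2 UMIs outnumbered those of Ifngr1 in any library.

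**Figure D2:**
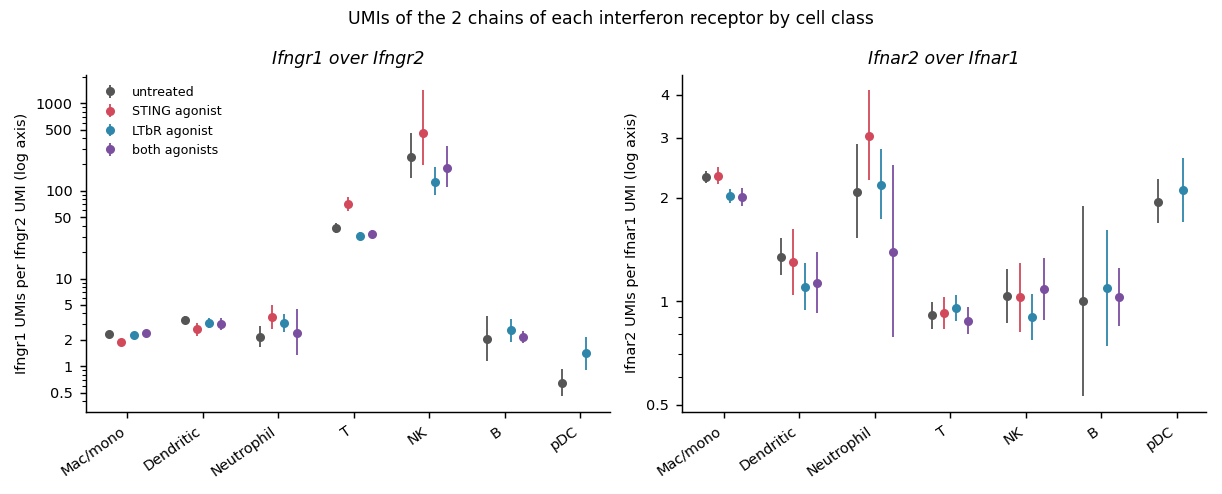
UMIs of Ifngr1 per UMI of Ifngr2 (left) and of Ifnar2 per UMI of Ifnar1 (right) by class and library, on log axes, with 95% intervals from exact binomial counting, for classes with at least 50 cells in that library. Macrophage- or monocyte-like cells sat at 1.90 to 2.37 Ifngr1 UMIs per Ifngr2 UMI, T-like cells at 30.7 to 70.4 and NK-like cells at 127 to 461.

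The first comparison asked how the genes of the STING pathway itself stood after the STING agonist alone. A gene was counted as changed where its CPM differed by at least 1.5-fold with at least 50 UMIs over both libraries, which is a rule of size and not a test. Of 41 pairs of a member and a class, 3 passed, all in dendritic- or neutrophil-like cells, the smallest of the 5 classes compared. In macrophage- or monocyte-like cells none of 9 members did, where 5.73% of all genes did. Dendritic-like cells had 1 of 8 (10.3% of all genes), neutrophil-like cells 2 of 7 (21.1%), T-like cells 0 of 9 (9.84%) and NK-like cells 0 of 8 (10.4%). Under another setting Tmem173 in T-like cells passed, at 0.75 log2 without cells that held markers of another class against 0.23, as did Irf5 in NK-like cells, at 1.00 with a gate lead of 2 markers against 0.29.

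Smaller differences stood beyond counting error in macrophage- or monocyte-like cells, led by Irf5. The log2 ratio of Irf5, STING agonist over untreated, was 0.36 (95% counting interval 0.30 to 0.42), and that of STING agonist added to LTβR agonist was 0.33 (95% counting interval 0.27 to 0.39). Both libraries with the STING agonist lay above both without it. The same held for Tmem173, with log2 ratios of 0.29 (0.20 to 0.38) and 0.27 (0.17 to 0.37), and for Ifngr2, with 0.17 (0.09 to 0.24) and 0.16 (0.08 to 0.24). The share of all genes that separated by agonist in this way, or lay beyond counting error, is not given here. Other members had intervals below 0. Ikbke was lower in both pairs, at -0.16 and -0.32, Ifngr1 without the LTβR agonist, at -0.13, and Tbk1 with it, at -0.15. Over 10 other ways of gating, scaling and filtering, the Irf5 ratio ran from 0.34 to 0.42 for the STING agonist alone and from 0.26 to 0.35 for the agonist added to LTβR agonist.

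For Irf5 and Tmem173 the STING agonist ratio was larger in Ly6c2 monocyte-like cells than in C1q macrophage-like cells, the sub-gate with all of C1qa, C1qb and C1qc and no Ly6c2. For Ifngr2 it was 0.20 and 0.20. Irf5 stood at 231, 326, 236 and 315 CPM in the Ly6c2 cells, a log2 ratio of 0.50 (95% counting interval 0.41 to 0.58). In C1q cells it stood at 169, 184, 152 and 171 CPM, a log2 ratio of 0.12 (95% counting interval -0.03 to 0.27). The C1q values of the untreated and combination libraries were close, so the groups with and without the STING agonist did not separate as they did in the Ly6c2 cells. Tmem173 was at 95.3, 118, 81.0 and 103 CPM in Ly6c2 and 78.6, 89.8, 65.8 and 78.7 CPM in C1q cells. Without cells that held markers of another class, Irf5 stood at 216, 317, 236 and 313 CPM in Ly6c2 and 163, 181, 151 and 143 CPM in C1q cells. The difference between the sub-gates was not tested.

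**Figure D3:**
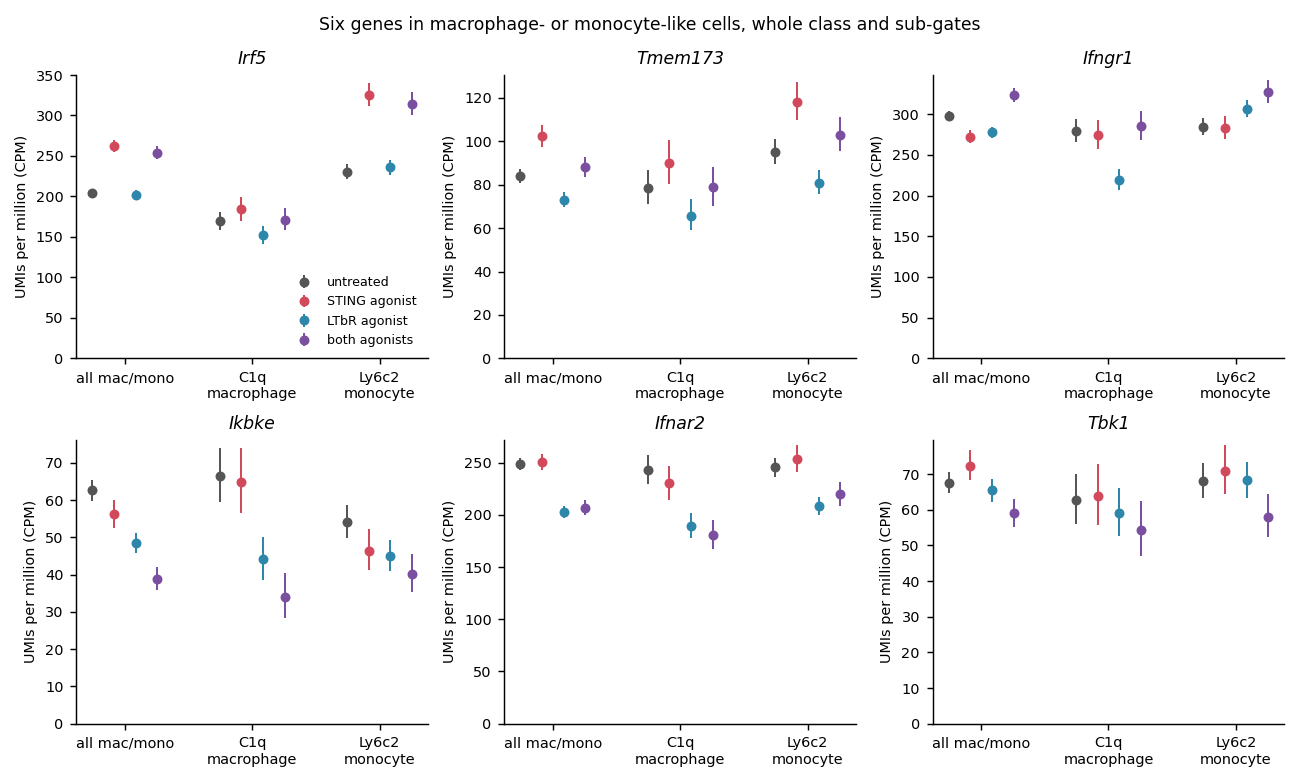
Levels of 6 members (CPM, from 0) in all macrophage- or monocyte-like cells and in its C1q and Ly6c2 sub-gates, 1 point per library with its 95% Poisson interval. Irf5 in Ly6c2 cells was at 326 and 315 with the STING agonist against 231 and 236 without it, and Ikbke and Ifnar2 were lower in the libraries with the LTβR agonist in all 3 sets of cells.

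Dendritic-like cells held the one member past the size rule upward. Tmem173 went from 77.7 CPM untreated to 120.4 CPM with the STING agonist, 1.55-fold or a log2 ratio of 0.63 (95% counting interval 0.36 to 0.90), in 128 cells. Of its UMIs in that library, 32.0% came from 10 cells, and the log2 ratio was 0.20 when cells with markers of another class were left out. Irf5 had a log2 ratio of 0.50 (0.36 to 0.63), which was 0.28 without the 10 cells richest in it. By kind, Irf5 stood at 342, 615, 425 and 509 CPM in cDC1-like cells and 304, 461, 283 and 339 CPM in Cd209a dendritic-like cells, with the STING agonist library highest in both. In mature dendritic-like cells, marked by Ccr7 and Fscn1, it stood at 274, 254, 268 and 283 CPM, where that library was lowest. Most of these kinds had under 50 cells in a library with the STING agonist and are given as values only.

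T- and NK-like cells had more Ifngr1 with the STING agonist. The log2 ratio in T-like cells was 0.34 (95% counting interval 0.29 to 0.38) and in NK-like cells 0.24 (95% counting interval 0.16 to 0.32), both under 1.5-fold. With the STING agonist added to the LTβR agonist it was 0.10 (0.06 to 0.13) and 0.17 (0.10 to 0.24), so both pairs lay above 0 in both classes. Within T-like cells, Ifngr1 stood at 1225, 1479, 995 and 997 CPM in CD4 cells and 662, 795, 630.1 and 767 CPM in CD8 cells, so the CD4 libraries with the LTβR agonist were below untreated while the STING agonist library was highest in both kinds. Ifngr2 in T-like cells had a log2 ratio of -0.57 (-0.90 to -0.24), just inside 1.5-fold, and of -0.10 without cells that held markers of another class. In CD8 T-like cells it was at 12.5, 3.12, 13.8 and 11.7 CPM from 91, 14, 79 and 86 UMIs, and at 6.85, 7.46, 8.93 and 25.9 CPM without such cells, an order that did not hold. Macrophage markers summed to 220.0, 89.8, 200.1 and 113 CPM in T-like cells, lowest in the STING agonist library as well, and their part in the result was not tested.

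In neutrophil-like cells Ikbke and Ifngr2 were past the size rule downward. Ikbke stood at 65.1, 33.0, 18.3 and 26.1 CPM, from 46, 29, 23 and 5 UMIs, and the untreated library was highest, with a log2 ratio of -0.98 (-1.70 to -0.28) for the STING agonist alone. Ifngr2 stood at 109, 60.3, 77.1 and 88.9 CPM, a log2 ratio of -0.85 (95% counting interval -1.39 to -0.33) for the STING agonist alone. Macrophage markers summed to 908, 332, 669 and 633 CPM in these cells, highest in the untreated library as well, and their part in the result was not tested.

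Immediate early and heat shock genes, which can mark handling, were highest in the STING agonist library in the same classes. Their 10 genes summed to 4433, 5225, 4073 and 4101 CPM in macrophage- or monocyte-like cells, 2894, 4155, 2624 and 3145 CPM in dendritic-like cells, 2022, 3059, 2248 and 2474 CPM in T-like cells and 1818, 2939, 2102 and 2134 CPM in NK-like cells. With the STING agonist alone, 3 of the 10 were higher past 1.5-fold in macrophage- or monocyte-like cells (2.12% of all genes). In dendritic-like cells 6 were higher (4.12%), and in T-like cells 6 (4.09%). With the LTβR agonist alone 4 were higher in macrophage- or monocyte-like cells (5.05%) and 1 lower (3.62%). In the combination against untreated, 4 of the 10 were higher past 1.5-fold in macrophage- or monocyte-like cells (6.91% of all genes) and none lower (4.83%). The median log2 ratio over these 10 stress genes was 0.31. Their part in the results for the STING agonist and the combination was not tested.

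**Figure D4:**
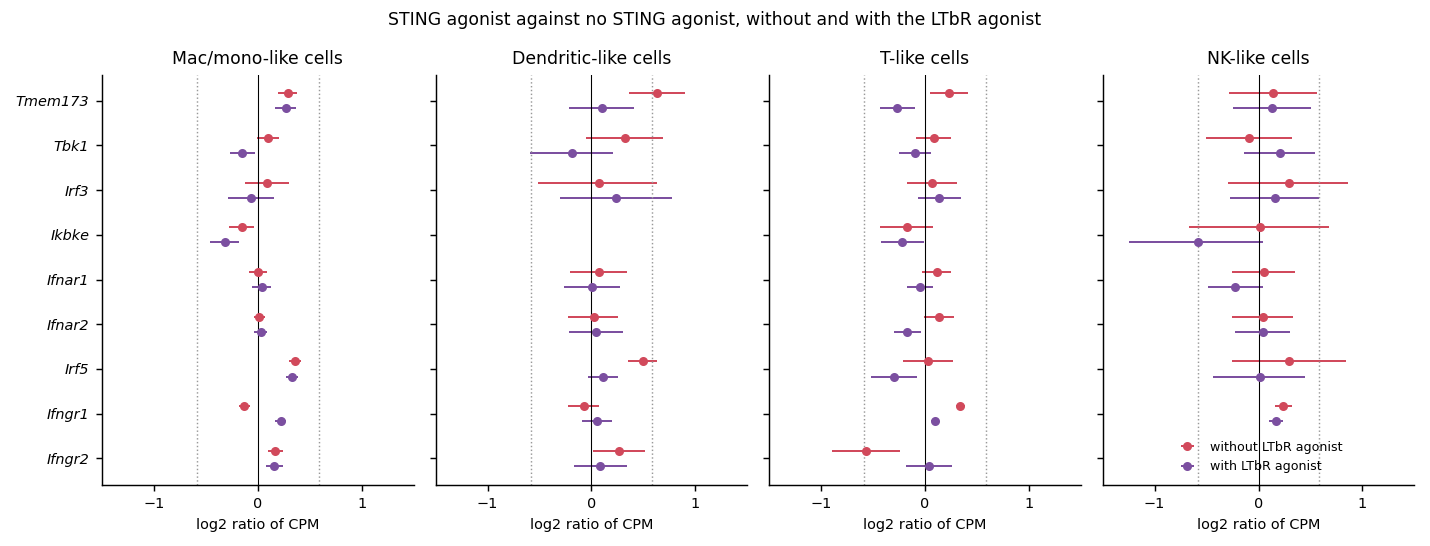
Log2 ratios of CPM for the STING agonist against no STING agonist, without the LTβR agonist (red) and with it (violet), for members with at least 50 UMIs in 4 classes; bars are 95% counting intervals and dotted lines mark 1.5-fold. The intervals of Irf5 and Tmem173 lay above 0 in both pairs in macrophage- or monocyte-like cells, and in dendritic-like cells without the LTβR agonist, while those with it held 0.

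The second comparison was that of the LTβR agonist alone with untreated tumours. The LTβ receptor is a member of the tumour necrosis factor receptor family that signals to NF-κB and is found mainly on stromal and myeloid cells. Members past the size rule numbered 2 of 42 pairs, Ikbke and Tmem173 in neutrophil-like cells, both lower, at -1.83 (-2.62 to -1.08) and -0.66 (-1.51 to 0.20) log2. By class this was 0 of 9 in macrophage- or monocyte-like cells (8.67% of all genes), 0 of 8 in dendritic-like cells (9.25%), 2 of 8 in neutrophil-like cells (18.0%), 0 of 9 in T-like cells (7.74%) and 0 of 8 in NK-like cells (7.20%). The neutrophil Tmem173 value rested on 24, 14, 27 and 4 UMIs, its interval held 0, and it turned to 0.50 without the 10 richest cells of each library.

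Ikbke and Ifnar2 were lower with the LTβR agonist in macrophage- or monocyte-like cells. Ikbke had a log2 ratio of -0.37 (95% counting interval -0.47 to -0.27) and Ifnar2 of -0.29 (95% counting interval -0.34 to -0.24). Both libraries with the LTβR agonist lay below both without it for either gene, as they did for Ifnar1 and Tbk1. The share of all genes that separated by the LTβR agonist is not given here. Over the 10 alternatives the ratios ran from -0.42 to -0.31 for Ikbke and from -0.30 to -0.27 for Ifnar2, one of which kept all barcodes. For Ifnar2, C1q cells stood at 243, 230.1, 189 and 180.4 CPM and Ly6c2 cells at 245, 254, 208 and 219.8 CPM, with the same separation in each. For Ikbke, C1q cells stood at 66.4, 64.8, 44.1 and 34.0 CPM, past 1.5-fold for the LTβR agonist alone at -0.59 (-0.84 to -0.34) log2, and Ly6c2 cells at 54.1, 46.4, 45.0 and 40.2 CPM. Ifnar1, the partner chain, had a log2 ratio of -0.11 (-0.18 to -0.03), and the Ifnar2 to Ifnar1 ratio of UMIs was lower in both libraries with the LTβR agonist. Hspa1a and Hspa1b, heat shock genes, were at 39.7, 71.9, 182 and 66.2 and 31.1, 45.3, 189 and 73.3 CPM in these cells, highest in the LTβR agonist library, and their part in the result was not tested.

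The combination against untreated gave 2 of 41 pairs past the size rule, both Ikbke and both lower. In macrophage- or monocyte-like cells its log2 ratio was -0.69 (95% counting interval -0.82 to -0.56), 0.620-fold, from 1 of 9 members (11.7% of all genes). In C1q cells it was -0.97 (-1.27 to -0.67). The combination library was thus lowest for Ikbke in the whole class and in both sub-gates, while Tbk1 had a log2 ratio of -0.20 (-0.31 to -0.08), so that UMIs of Tbk1 per UMI of Ikbke went 1.08, 1.29, 1.35 and 1.52 over the 4 libraries. The other classes had 0 of 8 in dendritic-like cells (13.7%), 1 of 7 in neutrophil-like cells (23.2%, on 5 UMIs in the combination), 0 of 9 in T-like cells (8.49%) and 0 of 8 in NK-like cells (9.34%).

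The fourth comparison set the combination against the LTβR agonist alone, which gives what the STING agonist added. None of 40 pairs was past the size rule: 0 of 9 in macrophage- or monocyte-like cells (6.28% of all genes), 0 of 8 in dendritic-like cells (10.7%), 0 of 6 in neutrophil-like cells (26.2%), 0 of 9 in T-like cells (8.58%) and 0 of 8 in NK-like cells (7.40%). The nearest was Ikbke in NK-like cells, at -0.58 (95% counting interval -1.24 to 0.05) log2, whose interval held 0. All 4 comparisons share libraries, so they are not independent of each other.

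For some members the STING agonist ratio differed with and without the LTβR agonist by more than counting error. Such differences were computed for the members only, so the share of all genes with one is not known. In macrophage- or monocyte-like cells the ratio of Ifngr1 was -0.13 without and 0.22 with it, a difference of 0.35 (0.28 to 0.42) on the log2 scale. The combination was the highest library for Ifngr1 in these cells, at 323 CPM, and untreated the next, at 298 CPM. Tbk1 ran the other way, with a difference of -0.25 (-0.40 to -0.09). In dendritic-like cells the difference was -0.53 (-0.93 to -0.13) for Tmem173 and -0.38 (-0.58 to -0.18) for Irf5, both of which were high in the STING agonist library alone. As given above, that ratio of Tmem173 fell without cells with markers of another class. That of Irf5 fell without the cells richest in it, so both differences depend on such cells.

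In T-like cells 5 members differed between the pairs in this way, a count without a share of all genes to set beside it. The differences were -0.50 (-0.75 to -0.25) for Tmem173, -0.31 (-0.50 to -0.11) for Ifnar2, -0.33 (-0.64 to -0.01) for Irf5, -0.24 (-0.30 to -0.18) for Ifngr1 and 0.61 (0.22 to 0.99) for Ifngr2. For Tmem173 and Ifngr2 the ratio for the STING agonist alone moved without cells that held markers of another class, as given above. Their differences thus depend on the gate, which the intervals do not cover. Irf5 in T-like cells depended on the gate: regulatory T-like cells, marked by Foxp3, held 96.4, 113, 60.8 and 44.5 CPM, and 31.1, 34.7, 12.3 and 31.8 CPM without cells that held markers of another class. The lower values of both libraries with the LTβR agonist were thus not kept in the combination. Left out of these differences is any spread between tumours, since each group was 1 pool.

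The rest of the pathway was read from lists, beside the 5.73% of all genes past 1.5-fold with the STING agonist alone in macrophage- or monocyte-like cells. With the STING agonist alone, 0 of 11 DNA sensing and nuclease genes were higher and 1 was lower past 1.5-fold, Enpp1, the phosphodiesterase that degrades the cyclic dinucleotide cGAMP outside the cell, at 36 UMIs against 103. Of 10 STING trafficking and regulator genes 1 was higher, Trim32, a ubiquitin ligase, and of 12 kinase partners and downstream factors none was. Median log2 ratios of these lists were -0.01, 0.02 and -0.04, beside 0.00495 for all genes, and the counts were near the share of all genes. Irf4 was higher with the LTβR agonist alone and in the combination, at 4.27, 3.82, 8.37 and 9.42 CPM over the 4 libraries.

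Of 12 genes that signal below the interferon receptors, Socs1 alone passed the size rule in macrophage- or monocyte-like cells. It passed with the STING agonist alone (5.73% of all genes), in the combination (11.7%) and with the STING agonist added to the LTβR agonist (6.28%). A count of 1 of 12 is near these shares. Socs1, an inhibitor of JAK kinases that interferon-γ is known to induce, stood at 91.1, 164, 78.3 and 159.6 CPM, and both libraries with the STING agonist were above both without it. Irf1, a factor induced by the same route, followed at 236, 311, 177 and 303 CPM, past 1.5-fold only for the STING agonist added to the LTβR agonist. Socs1 was also higher in T-like cells with the STING agonist alone, at 142, 224, 162 and 182 CPM.

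Early interferon-stimulated genes differed by class. In macrophage- or monocyte-like cells 0 of 11 were past 1.5-fold in each comparison with untreated. Of all genes there, 5.73% were past it with the STING agonist alone, 8.67% with the LTβR agonist alone and 11.7% in the combination. With the STING agonist added to the LTβR agonist 1 was lower, Ifi44 (2.64% of all genes). In T-like cells 1 of 11 was higher with the STING agonist alone, Ifit1, and 3 with the LTβR agonist alone, Rsad2, Ifit1 and Cxcl10, while 2 were lower in the combination, Oasl2 and Ifi44. Of all genes in T-like cells, 4.09% were higher with the STING agonist alone, 4.28% higher with the LTβR agonist alone and 5.74% lower in the combination. With the STING agonist added to the LTβR agonist 4 of 11 were lower in T-like cells (6.25% of all genes), Oasl2, Rsad2 and Cxcl10 the most. Rsad2, an antiviral enzyme, stood at 35.4, 51.8, 63.8 and 34.6 CPM in T-like cells. NK-like cells had 5 of 11 higher with the STING agonist alone (6.44% of all genes), and dendritic-like cells had 5 of 11 lower in the combination (9.0%). Neutrophil-like cells had 2 of 10 higher and 1 lower with the STING agonist alone (5.30% and 15.8% of all genes), and 6 of 10 higher and none lower in the combination (10.4% higher), with a median log2 ratio of 0.63, from 67 cells. Ifi204, of the DNA sensing and nuclease list, was at 33.3, 20.4, 43.8 and 17.8 CPM in T-like cells, lower in both libraries with the STING agonist. Macrophage markers in T-like cells were lower in the same libraries, and their part in the result was not tested. In neutrophil-like cells Ifi204 was higher in the combination, at 376 CPM against 223 CPM untreated and 250 CPM with the LTβR agonist alone.

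The ligands were almost wholly interferon-γ. Ifng held 3941, 2865, 2410 and 2905 UMIs over all cells of the 4 libraries, Ifnb1 held 9, 1, 21 and 15, and the Ifna genes held 6 of Ifna4 in the LTβR agonist library and 1 of Ifna5 in the combination. In T-like cells Ifng stood at 317, 331, 169 and 193 CPM, lower past 1.5-fold with the LTβR agonist alone and in the combination. Of the class II cytokine receptors beside the members, Il20rb was past 1.5-fold in the combination in macrophage- or monocyte-like cells, at 1.27, 1.75, 1.90 and 2.26 CPM, and Ifnlr1, the type III interferon receptor chain, stood at 0.167, 0.313, 1.26 and 2.13 CPM.

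Across 25 points of a class and a library with at least 50 cells, the members fell into a few shapes. Irf5 and Ifngr2 were alike, with a Pearson r of 0.87 on log2(CPM + 10), as were Ifnar1 and Ifnar2 with 0.79. The receptor chains for interferon-γ were opposed, with -0.75 for Ifngr1 and Ifngr2, and so were the kinase and the factor it phosphorylates, with -0.67 for Tbk1 and Irf3. These points share libraries, depth and free RNA, so the values are descriptions.

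Among 6357 genes with a mean of at least 20 CPM over those points, the 3 most like Tmem173 were Mlf2, Akr1a1 and Ywhae (r = 0.93, 0.92 and 0.91). For Tbk1 they were Entpd1, Acod1 and Arg2 (r = 0.89, 0.89 and 0.88), of which Acod1 and Arg2 are enzymes of activated myeloid cells, and for Irf3 Tia1, Gtf3c6 and Nup50 (r = 0.92, 0.88 and 0.88). For Ikbke, Cpd (r = 0.92) and Dusp6 (r = 0.88) led. For Irf5 they were Zfp516, Amz1 and Cfp (r = 0.96, 0.95 and 0.95), where Cfp is properdin of the complement system. Among the receptor chains, Ifnar1 was most like Cd47, Nptn and Tmed3 (r = 0.92, 0.91 and 0.88), Ifnar2 like Lair1, Ctsl and Eepd1 (r = 0.95, 0.95 and 0.94), Ifngr1 like Abcb1a, Atp10a and Peak1 (r = 0.96, 0.95 and 0.95) and Ifngr2 like Tmem50b, Arhgef11 and Ctsz (r = 0.95, 0.95 and 0.95). Tmem50b is the next gene past Ifngr2 on chromosome 16. Trex1, on few UMIs, was most like Prelid2, Prelid1 and Mt2 (r = 0.62, 0.62 and 0.62).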

How the data were processed

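Cells of 4 libraries, 1 per group, were sequenced with a 10x 5′ kit. The deposited values are UMI counts per gene and barcode, made by the authors with Cell Ranger 7.1.0 on mm10 per the submitters' processing notes. Whether intronic reads were counted is not given in the sources used here. The cell filters of the study were applied to all barcodes: no fewer than 300 and no more than 5000 genes, and no more than 6% of UMIs from mitochondrial genes. A cell joined the class with the most detected of 6 fixed markers, if at least 2 were detected and no class tied. Names ending in -like follow from these markers alone. No doublet caller was run, and cells with markers of another class were left out as an alternative. Counts were summed per class and library and given as CPM with exact Poisson intervals, ratios with exact binomial ones (confidence level 95%), which cover counting error only. With 1 library a group there was no test. Every sample column was used. The members and lists were chosen with earlier results of these data known. Named were the members in every class with at least 50 cells, at most 3 list genes per list and comparison past 1.5-fold in macrophage- or monocyte-like, T-like or neutrophil-like cells, and the 3 genes most like each member, of which 1 is not reported here. Other genes named were chosen after their values were seen (Irf1 and Ifnlr1 over all libraries, and the ligands). Alternatives changed the gate, clustering (scanpy 1.11.5), scaling, filters and count minimum. Python 3.11.15 and scipy 1.17.1 were used. The ratio code was tested on simulated data.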

Additional observations from a re-analysis of the deposited data

How the results depend on the processing

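No paired analysis was possible because each group has 1 library. Of 1638 ratios recomputed under 10 alternatives, 1539 stayed inside the counting interval of the value reported, 98 left it and 1 reversed, Tmem173 in neutrophil-like cells with the LTβR agonist alone, which went to 0.50 on the log2 scale without the 10 cells richest in the gene. Counts of members past 1.5-fold were small and moved with the settings, the causes of which were not tested. For the STING agonist alone the count of 3 went to 1 with a minimum of 200 UMIs and 8 with none. For the LTβR agonist alone the count of 2 went to 0 with a gate lead of 2 markers, without cells with markers of another class, or with 200 UMIs, to 1 with a pseudocount of 10 CPM, all barcodes, or the 10 richest cells left out, and to 5 with no minimum. For the combination the count of 2 went to 1 with the pseudocount or 200 UMIs, 5 with the mean of CPM per cell, 4 with all barcodes, 6 without the 10 richest cells and 8 with no minimum. For the STING agonist added to the LTβR agonist the count of 0 went to 4 with the gate lead, 2 by cluster or by mean of CPM per cell, 1 with all barcodes, 3 without cells with markers of another class, 7 without the 10 richest cells and 3 with no minimum, and to 1 without barcodes found in 2 libraries, an alternative chosen after seeing the data. Leaving out cells with markers of another class removed 10.4% to 50.6% of a class in a library. Among the 5 classes compared between libraries, which leave out plasmacytoid dendritic- and B-like cells, the class highest in CPM changed for Tmem173, Irf3, Trex1 and Ifnar1 under at least 1 other gate.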
